A study of Mus musculus with 48 samples.

Results

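The genes described here were 7 matrix metalloproteinases (Mmp2, Mmp3, Mmp8, Mmp9, Mmp12, Mmp14 and Mmp19), 2 tissue inhibitors of metalloproteinases (Timp2 and Timp3) and the aggrecanase Adamts4, 10 of the 47561 genes in the expression table. They were taken by gene symbol, whatever their levels, from lung RNA sequencing of 48 adult mice. The mice were C3H or C57B (C3H/HeN, and C57Bl/6 in the labels or C57Bl/6N in the methods of the study), male (C3HM, C57BM) or female (C3HF, C57BF). Each received a single intraperitoneal injection of saline or of 25 mg/kg aurothioglucose (ATG), a gold-containing blocker of thioredoxin reductases, and was then kept for 96 h in room air or in hyperoxia (over 95% oxygen). This gave 16 groups of 3 mice, and every mouse was a separate animal. The series description speaks of ATG for all mice, so the saline groups rest on the sample labels. Each strain stands for its own genotype only, and all mice received an injection, so no uninjected lung was measured.

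Matrix metalloproteinases are zinc enzymes that cut collagens, elastin, laminins and other matrix proteins. Most are secreted as inactive proenzymes that plasmin, other metalloproteinases or convertases such as furin open, and the TIMPs bind and block the active enzymes. In lung they take part in alveolar remodelling, in the passage of leukocytes through basement membrane and in the loss of elastic fibres. Some are made mainly by neutrophils (Mmp8, Mmp9) or macrophages (Mmp12), others mainly by fibroblasts and other structural cells (Mmp2, Mmp14, Timp3).

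Mmp12, Mmp3 and Mmp8 lie in a cluster of 10 metalloproteinase genes on chromosome 9 (GRCm38, from 7272514 to 7699585 in the GENCODE M21 annotation). Mmp12 runs from 7344381 to 7369499, Mmp3 from 7445822 to 7455975 and Mmp8 from 7558456 to 7568485, all on the forward strand. The others are spread over the genome, with Adamts4 on chromosome 1 (171250421 to 171260637), Mmp9 on chromosome 2 (164940780 to 164955850), Mmp2 on chromosome 8 (92827291 to 92853420), Timp3 on chromosome 10 (86300372 to 86349506), Mmp19 on chromosome 10 (128790910 to 128800824), Timp2 on the reverse strand of chromosome 11 (118301069 to 118355740) and Mmp14 on chromosome 14 (54431612 to 54445364). All 10 are annotated as protein coding, and their values are sums over the exons of each gene.

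The promoters of the 3 cluster genes are shown because these genes lie in the same cluster and all 3 were higher in hyperoxia. Each window holds 250 bases before and 50 bases after a transcription start in RefSeq (GRCm38.p6, forward strand), and capitals mark the letters TGAGTCA, a binding sequence of the AP-1 factors, and TATAAA, the letters of the core promoter element that TBP binds. Both were searched on both strands, and they do not overlap each other here.
Mmp3, chr9:7445572-7445871: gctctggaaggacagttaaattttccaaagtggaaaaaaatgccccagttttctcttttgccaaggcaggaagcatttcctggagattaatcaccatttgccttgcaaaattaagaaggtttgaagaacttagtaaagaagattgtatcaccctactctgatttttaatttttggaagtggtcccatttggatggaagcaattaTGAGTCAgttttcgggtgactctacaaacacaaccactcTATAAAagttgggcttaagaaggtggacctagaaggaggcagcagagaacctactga
Mmp12 (the second of its annotated starts), chr9:7347124-7347423: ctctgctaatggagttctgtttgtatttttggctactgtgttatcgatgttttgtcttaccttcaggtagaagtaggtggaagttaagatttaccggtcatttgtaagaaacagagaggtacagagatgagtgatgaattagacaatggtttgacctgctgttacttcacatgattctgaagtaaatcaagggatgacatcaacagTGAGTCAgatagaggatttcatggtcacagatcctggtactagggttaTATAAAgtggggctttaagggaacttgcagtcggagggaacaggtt
Mmp8, chr9:7558179-7558478: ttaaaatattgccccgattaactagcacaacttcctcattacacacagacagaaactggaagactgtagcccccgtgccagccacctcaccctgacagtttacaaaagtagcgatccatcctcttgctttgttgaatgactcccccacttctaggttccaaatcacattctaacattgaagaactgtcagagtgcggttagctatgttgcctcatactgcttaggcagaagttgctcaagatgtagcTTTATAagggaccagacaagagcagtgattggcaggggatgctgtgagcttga
In Mmp3 the first base of TGAGTCA stood 46 bases before the start and in Mmp12 44 bases before it. TATAAA began 7 bases before the start in Mmp3 and 4 bases after it in Mmp12. Mmp8 held TATAAA on the opposite strand (TTTATA as printed), beginning 3 bases before the start, and no TGAGTCA. Of 32851 promoter windows of this length, 5.20% held TGAGTCA on either strand and 13.6% held TATAAA. The first start of Mmp12 and the windows of Mmp14, Timp2 and Timp3 held neither sequence. Windows for 6 of the 10 genes were matched, and those of Mmp2, Mmp9, Mmp19 and Adamts4 were not.

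Levels were given as FPKM (fragment counts divided by transcript length and library size), which can be compared between genes because length is taken out. No read counts were used, so the absolute depth behind each value is unknown. From the steps between low values, relative depth ranged from 0.771 to 1.25 times the typical library, and 13397 to 14811 genes reached an FPKM of 1. Pearson r of all genes between mice of a group ranged upward from 0.933, the value for mice 1 and 2. Lung markers were present throughout, with 6 of 6 alveolar type 2, 6 of 6 alveolar type 1, 3 of 3 club cell and 6 of 6 endothelial markers at a median of at least 1. Scgb1a1, the main club cell secretory protein, took 10.4% to 30.2% of the summed FPKM in room air and 1.20% to 7.17% in hyperoxia. Of the saline mice in hyperoxia, 2 stood apart from the others of their group, mouse 19 (C57BM, r of 0.951 and 0.941) and mouse 33 (C3HF, r of 0.944 and 0.953), with neutrophil markers (12 genes) summing to 6535 against 629 and 669, and to 7598 against 549 and 1872. The fitted effects of the 10 genes in hyperoxia are given also without them. That fit was chosen after the data were seen. Both mice had the highest Mmp8, Mmp9 and Adamts4 of their groups, so calls made without them are a description only. All lungs were bulk tissue, in which fewer cells of a type and less RNA per cell cannot be told apart.

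**Figure D1:**
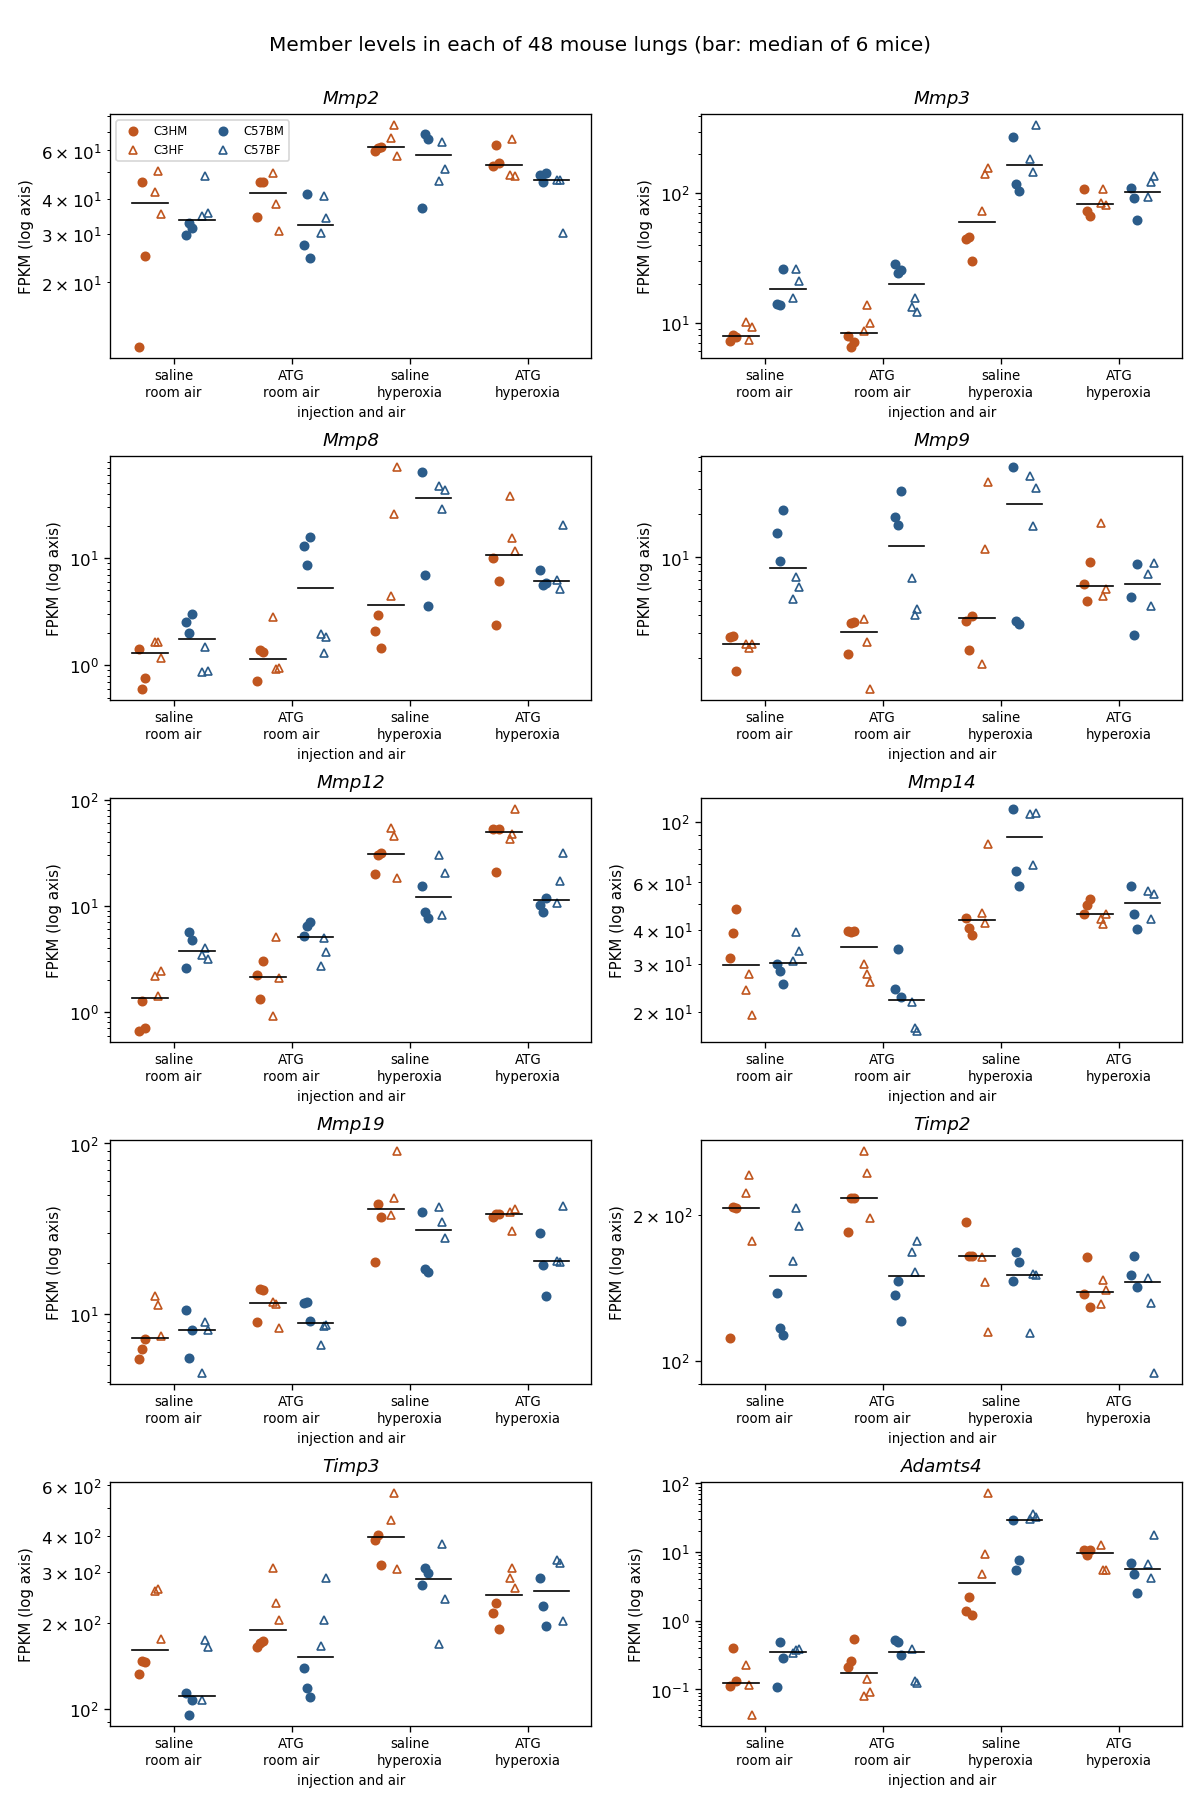
FPKM of each of the 10 genes (log axis) in each of 48 mice, by injection and air, with filled circles for males, open triangles for females, orange for C3H, blue for C57B and a bar at the median of 6 mice. Adamts4 spans 0.0429 to 0.491 in the saline room air lungs and 1.20 to 71.5 in the saline hyperoxia lungs, whereas Timp2 spans 112 to 242 and 114 to 193.

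In room air the inhibitors were the most abundant of the 10 transcripts. Over the 12 saline room air mice the median level was 184 FPKM for Timp2, which blocks metalloproteinases and also helps to activate pro-Mmp2, and 146 FPKM for Timp3, the TIMP that binds to the matrix. Mmp2 (gelatinase A, 35.0 FPKM) and Mmp14 (a membrane-bound collagenase that activates pro-Mmp2, 30.4 FPKM) followed. Mmp3 (stromelysin-1) had a median of 11.8 FPKM and Mmp19 7.77 FPKM. The leukocyte enzymes were lower, with medians of 4.01 FPKM for Mmp9 (gelatinase B), 2.51 FPKM for Mmp12 (macrophage elastase) and 1.46 FPKM for Mmp8 (neutrophil collagenase). Adamts4, which cuts the proteoglycans aggrecan and versican, was lowest at 0.258 FPKM. In this order only 2 neighbouring pairs had ranges without overlap, Timp3 above Mmp2 and Mmp8 above Adamts4.

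In hyperoxia the order of the medians over the 12 saline mice was Timp3 (312 FPKM), Timp2 (156), Mmp3 (129), Mmp14 (62.1), Mmp2 (61.5), Mmp19 (37.4), Mmp12 (20.1), Mmp8 (16.5), Adamts4 (8.58) and Mmp9 (7.66). The ranges of every neighbouring pair overlapped. Over both strains Mmp3 thus stood next to the inhibitors, and Adamts4 was no longer the lowest. In mean FPKM Mmp3 lay below Timp2 in C3H (82.0 against 158) and above it in C57B (193 against 148).

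Hyperoxia was compared with room air in the 24 saline mice, with limma on log2(FPKM + 1), a group mean for each strain, sex and air, and Benjamini-Hochberg adjustment over 16321 genes. Of the 10 genes, 8 were higher in hyperoxia and 0 were lower at an adjusted p under 0.05. Over all genes tested 60.1% were called in either direction, 31.8% higher and 28.3% lower. The median log2 change was 1.58 over the 10 genes and 0.01 over all genes. Among the saline lungs Adamts4 reached 1 FPKM only in hyperoxia and so entered the test through the group in which it was high, which leaves 7 of the other 9 genes called higher. On this scale the change of a gene near or under 1 FPKM is understated, so ratios of mean FPKM are given beside it for most genes. In Mmp3, Mmp12 and Mmp19 all 12 hyperoxia values lay above all 12 room air values, which held for 5.61% of all genes. The values of Adamts4 were apart as well, which is a description only because of the way it entered the test.

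Adamts4 had the largest ratio. In C3H its level was 0.0429 to 0.395 FPKM in room air (median 0.126) and 1.20 to 71.5 FPKM in hyperoxia (median 3.53). In C57B it was 0.108 to 0.491 FPKM (median 0.356) and 5.51 to 35.4 FPKM (median 29.5). No hyperoxia lung of either strain fell into the room air range, but the spread within hyperoxia was wide, with 1.37, 2.19 and 1.20 FPKM in C3HM, 4.86, 9.54 and 71.5 in C3HF, 28.9, 5.51 and 7.61 in C57BM and 30.2, 35.4 and 32.3 in C57BF. The high values came from mouse 33, mouse 19 and all 3 C57BF mice. The ratio of means was 88.2 in C3H and 70.1 in C57B, but 22.4 and 66.8 without mice 33 and 19, so the order of the strains rested on these mice. The fitted log2 change over all saline mice was 3.19 ± 0.30 (SE, n = 12 against 12), given as a description.

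Mmp3, which cuts many matrix proteins and activates other proenzymes, had like ratios in the strains. In C3H its level was 7.18 to 10.0 FPKM in room air (median 7.86) and 29.8 to 158 FPKM in hyperoxia (median 59.6). In C57B it was 13.6 to 26.0 FPKM (median 18.2) and 103 to 335 FPKM (median 165). The ranges of hyperoxia and room air were far apart in each strain. Mean FPKM was 9.95 times the room air mean in C3H and 10.0 times in C57B. The log2 change was 3.04 ± 0.18 (SE, n = 12 against 12, limma adjusted p = 2.67e-11).

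Mmp12, which degrades elastin, differed between the strains in both airs. In C3H its level was 0.667 to 2.43 FPKM in room air (median 1.35) and 18.4 to 54.4 FPKM in hyperoxia (median 30.9). In C57B it was 2.58 to 5.68 FPKM (median 3.73) and 7.62 to 30.2 FPKM (median 12.1). C3H lungs thus began below every C57B lung and, in hyperoxia, 4 C57B values lay below every C3H value while the other 2 lay within the C3H range. The ratio of means was 23.0 in C3H against 3.83 in C57B. The log2 change over all saline mice was 2.66 ± 0.20 (SE, limma adjusted p = 8.32e-10).

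Mmp19, a metalloproteinase of the basement membrane and vessel wall, was 5.43 to 12.8 FPKM in C3H room air lungs (median 7.26) and 20.3 to 89.8 FPKM in hyperoxia (median 41.1). In C57B it was 4.53 to 10.5 FPKM (median 8.11) and 17.8 to 42.1 FPKM (median 31.3). Here too the air groups did not overlap in either strain. The ratio of means was 5.52 in C3H and 3.94 in C57B, with a log2 change of 2.04 ± 0.18 over all saline mice (SE, limma adjusted p = 6.09e-09).

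The leukocyte collagenase and gelatinase were also uneven within hyperoxia. Mmp8 was 0.605 to 1.67 FPKM in C3H room air lungs (median 1.29) and 1.45 to 70.4 FPKM in hyperoxia (median 3.69). In C57B it was 0.859 to 3.01 FPKM (median 1.75) and 3.60 to 63.4 FPKM (median 36.2). The air groups overlapped in C3H but not in C57B. The ratio of means was 14.8 in C3H and 17.9 in C57B, or 6.12 and 14.4 without mice 33 and 19. The log2 change over all saline mice was 2.51 ± 0.37 (SE, limma adjusted p = 7.86e-06). It was 3.71 in females alone (7.41e-05), and in males alone it was 1.32 (0.0504) and the call was lost, also within C3H (0.496) and C57B (0.0536).

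Mmp9 was 1.62 to 2.84 FPKM in C3H room air lungs (median 2.52) and 1.81 to 33.3 FPKM in hyperoxia (median 3.80), and in C57B 5.17 to 21.3 FPKM (median 8.40) and 3.48 to 42.1 FPKM (median 23.4). Its air groups overlapped in both strains, and its log2 change of 0.80 ± 0.36 (SE, limma adjusted p = 0.0637) did not pass the threshold. It passed when mouse 20, 21 or 31 was left out, with log2 changes of 0.93 to 1.04 (limma adjusted p = 0.00707 to 0.0336). In females alone it was 1.77 (0.00779) and in males alone −0.18 (0.794).

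Mmp2, Mmp14 and Timp3, abundant already in room air, changed less. Mmp2 rose 1.69-fold in mean FPKM over all saline mice, with a log2 change of 0.79 ± 0.16 (SE, limma adjusted p = 0.00019). Its C3H values were 11.7 to 50.7 FPKM in room air and 57.5 to 73.9 FPKM in hyperoxia, which did not overlap, and its C57B values, 29.8 to 48.4 and 37.1 to 68.9 FPKM, did. Timp3 rose 2.18-fold in each strain, from 132 to 262 FPKM to 308 to 563 FPKM in C3H and from 95.5 to 174 FPKM to 168 to 376 FPKM in C57B. The single overlap was in C57B, where a hyperoxia lung at 168 FPKM lay under a room air lung at 174 FPKM. Its log2 change was 1.13 ± 0.12 (SE, limma adjusted p = 1.84e-07).

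Mmp14 was 19.5 to 48.1 FPKM in C3H room air lungs (median 29.7) and 38.3 to 83.3 FPKM in hyperoxia (median 43.5). In C57B it was 25.3 to 39.5 FPKM (median 30.4) and 58.3 to 111 FPKM (median 88.6), with no overlap. The log2 change over all saline mice was 1.02 ± 0.12 (SE, limma adjusted p = 6.67e-07). In C3HM its hyperoxia values of 44.3, 40.7 and 38.3 FPKM lay within the room air values of 31.7, 38.9 and 48.1 FPKM, whereas in C3HF they were 46.4, 42.7 and 83.3 against 24.0, 27.6 and 19.5 FPKM. The C3H call was lost in males alone (log2 change 0.07, limma adjusted p = 0.851) and under median ratio scaling (0.47, 0.0624). 

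Timp2, the other inhibitor, had the fitted change nearest to 0. It was 112 to 242 FPKM in C3H room air lungs and 115 to 193 FPKM in hyperoxia, and 114 to 207 and 114 to 168 FPKM in C57B. Its log2 change was −0.15 ± 0.10 (SE, limma adjusted p = 0.191). Without mouse 1, whose room air Timp2 of 112 FPKM was the lowest of C3H, the change was −0.23 (limma adjusted p = 0.0163), and it was also called lower under median ratio scaling (−0.22, 0.0483), quantile normalization (−0.37, 0.00383) and in females alone (−0.51, 0.00422), but was 0.20 in males alone (0.300).

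**Figure D2:**
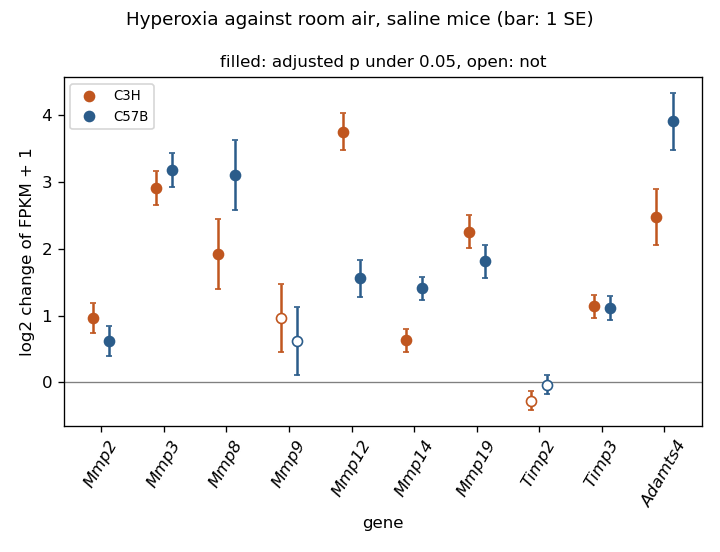
Log2 change of FPKM + 1 from room air to hyperoxia in saline mice of each strain (orange C3H, blue C57B, 6 mice a group, bar 1 SE, filled points at a limma adjusted p under 0.05, open points not). Mmp12 stands at 3.76 in C3H and 1.56 in C57B, Mmp14 at 0.63 and 1.41, and the open points are those of Mmp9 and Timp2.

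The log2 changes of hyperoxia without mice 19 and 33 were 2.76 for Adamts4, 2.88 for Mmp3, 2.70 for Mmp12, 2.02 for Mmp8, 1.86 for Mmp19, 1.20 for Timp3, 0.89 for Mmp2, 0.88 for Mmp14, 0.32 for Mmp9 and −0.10 for Timp2. The same 8 genes, Adamts4 among them, were called over both strains, in C3H and in C57B.

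Each strain was also tested on its own. In C3H, where 37.8% of all genes were called (25.3% higher, 12.5% lower), 8 of the 10 genes were higher. In C57B, where 55.5% were called (25.5% higher, 30.0% lower), 8 were higher as well. Mmp9 and Timp2 were outside in each strain. Adamts4 entered the test only through the hyperoxia lungs in which it was high. Its place in these counts, and in those of values without overlap below, is a description only. Median ratio scaling, which sets the libraries to a common median gene, moved the median change of all genes in C3H by −0.12, and quantile normalization by −0.10. The share of C3H calls that were higher went from 66.9% to 48.4% and 50.8%. For Mmp2 in C57B (log2 change 0.62, limma adjusted p = 0.0213) the call was lost without mouse 20, 21 or 44 (log2 changes of 0.54 to 0.56, limma adjusted p = 0.0514 to 0.057). Values did not overlap between the air groups for 6 genes in C3H (Mmp2, Mmp3, Mmp12, Mmp19, Timp3 and Adamts4), higher in hyperoxia, as for 10.2% of all genes. In C57B they did not overlap for 6 genes (Mmp3, Mmp8, Mmp12, Mmp14, Mmp19 and Adamts4), as for 16.1% of all genes. By an exact permutation test of FPKM, two-sided and adjusted over 20 comparisons, 8 genes passed in each strain, with a smallest possible p of 0.00216. This test was run on the 10 genes only, so no share over all genes stands beside its count. The genes that passed it need not be those called by limma.

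The strain difference of the hyperoxia effect was tested directly, as the effect in C3H minus that in C57B. Of the 10 genes 2 were called, where 11.5% of all genes were (8.71% with a larger effect in C3H, 2.81% with a smaller). With median ratio scaling and quantile normalization the median difference of all genes moved by −0.15 and −0.17, and the share of calls with a larger effect in C3H went from 75.6% to 46.5% and 49.1%. Mmp12 rose more in C3H, by 2.20 ± 0.40 on the log2 scale (SE, limma adjusted p = 0.00183), from effects of 3.76 in C3H and 1.56 in C57B. Mmp14 rose less in C3H, with a difference of −0.78 ± 0.25 (SE, limma adjusted p = 0.0463), from effects of 0.63 and 1.41. Without mice 19 and 33 the difference was 2.57 for Mmp12 (limma adjusted p = 0.000177) and −0.79 for Mmp14 (limma adjusted p = 0.00988).

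The Mmp14 difference lay at the threshold, and the call was lost when any of 16 of the 24 mice was left out (mice 3, 7, 8, 9, 13, 14, 15, 19, 25, 26, 31, 32, 37, 39, 43 and 45), with differences of −0.81 to −0.64 and limma adjusted p = 0.0557 to 0.0879. In females alone it was −0.22 (0.801). For Adamts4 the difference was −1.44 ± 0.60 (SE, limma adjusted p = 0.121), which did not pass. Without mouse 33, the C3HF lung with the highest Adamts4 of all 48 mice, it was −1.97 (limma adjusted p = 0.00255), and without mice 19 and 33 it was −1.64 (limma adjusted p = 0.00016). The Mmp12 call was kept when any 1 mouse was left out.

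Macrophages and fibroblasts are possible sources of these transcripts, and their markers were followed beside them. The alveolar macrophage list (10 genes) had 6 higher and 4 lower members in hyperoxia, and its sum was 546 to 733 FPKM in C3H room air lungs and 580 to 1320 FPKM in hyperoxia, against 355 to 814 and 886 to 2143 FPKM in C57B. The list of recruited monocytes and macrophages (10 genes) had 6 higher and 2 lower members, with sums of 168 to 338 and 427 to 1525 FPKM in C3H and of 150 to 222 and 261 to 877 FPKM in C57B. Their part in the Mmp12 result was not tested. The fibroblast list (10 genes) had 1 higher and 4 lower members. Over all genes 31.8% were called higher in hyperoxia and 28.3% lower. The fibroblast-associated Mmp2, Mmp14 and Timp3 were higher, and the part of fibroblast number in this was not tested.

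At the same point in hyperoxia, C3H and C57B lungs were also compared with each other in the saline mice, where 27.2% of all genes differed (16.1% higher and 11.1% lower in C3H). The share of calls that were higher in C3H went from 59.3% to 48.2% with median ratio scaling. Of the 10 genes, 4 were lower in C3H, namely Adamts4 (log2 difference −1.62 ± 0.42 SE, limma adjusted p = 0.00711), Mmp3 (−1.36 ± 0.25, 0.000496), Mmp8 (−1.48 ± 0.52, 0.0416) and Mmp14 (−0.81 ± 0.18, 0.00172). Mmp12 (1.16 ± 0.28, 0.00423) and Timp3 (0.56 ± 0.18, 0.0225) were higher in C3H. The Mmp8 call was lost when any of 8 mice was left out (mice 7, 8, 9, 19, 31, 32, 43 and 45, limma adjusted p = 0.0505 to 0.133). The Timp3 call was lost without mouse 8, 32 or 43 (limma adjusted p = 0.0506 to 0.0727). In females alone all 6 calls were lost, with directions kept. There Adamts4 was −1.03 (limma adjusted p = 0.343), Mmp3 −0.82 (0.134), Mmp8 −0.87 (0.433) and Mmp14 −0.76 (0.0708). Mmp12 was 1.01 (0.160) and Timp3 0.79 (0.125). Males alone lost the calls of Mmp8 (0.0800) and Timp3 (0.143) and kept the others. The 6 differences without mice 19 and 33 were −1.82 for Adamts4, −1.25 for Mmp3, −1.34 for Mmp8, −0.82 for Mmp14, 1.53 for Mmp12 and 0.65 for Timp3, all called by limma, and Mmp9 was then also lower in C3H (−1.16, adjusted p = 0.0109).

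Strain differences were also present before exposure. In the 12 saline room air mice, a two-way comparison of strain and sex found 4 of the 9 genes tested to differ between strains, where 11.8% of all 15546 genes did (3.92% higher and 7.87% lower in C3H), and Adamts4 was too low to be tested. Quantile normalization moved the median of all genes by 0.11, and the share of calls that were higher in C3H from 33.2% to 51.2%. Mmp9 was 2.83, 2.84 and 1.62 FPKM in C3HM and 2.52, 2.37 and 2.52 in C3HF, against 14.8, 9.47 and 21.3 FPKM in C57BM and 5.17, 7.33 and 6.23 in C57BF. Every C57B lung lay above every C3H lung, and C57BM lay highest. The log2 difference of C3H minus C57B was −1.62 ± 0.18 (SE, n = 6 against 6, limma adjusted p = 0.000105).

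Mmp3 was 7.18, 8.01 and 7.71 FPKM in C3HM and 10.0, 7.34 and 9.17 in C3HF, against 14.0, 13.6 and 26.0 in C57BM and 15.5, 26.0 and 20.8 in C57BF. The strains did not overlap, with a log2 difference of −1.10 ± 0.17 (SE, limma adjusted p = 0.00143). For Mmp12, likewise without overlap, the difference was −1.04 ± 0.18 (SE, limma adjusted p = 0.00229). Timp3 was higher in C3H by 0.53 ± 0.14 (SE, limma adjusted p = 0.0290), but its strains overlapped (132 to 262 against 95.5 to 174 FPKM) and the call was lost when mouse 3, 14, 15, 25, 26 or 37 was left out (limma adjusted p = 0.0525 to 0.0773). Of the neutrophil markers, 6 of 10 tested were lower in C3H at baseline, where 7.87% of all genes were. Their sums were 218 to 427 FPKM in C3H and 295 to 935 FPKM in C57B. Their part in the Mmp9 difference was not tested. C3H reads were mapped to a reference of C57B origin, and the effect of strain variants on these values was not tested.

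Of the 9 genes tested at baseline, limma called 0 between the sexes (4 at an unadjusted p under 0.05), where 0.669% of all genes were called. It called 0 in the interaction of strain and sex (4 unadjusted), where 0.0% were called. Between the sexes of the saline mice in hyperoxia, limma called 1 of the 10 genes, where 0.239% of all genes were called. Adamts4 was lower in males (−2.09 ± 0.42 SE, limma adjusted p = 0.0455), and the dependence of this call on single mice was not tested. The direct test of the sex difference of the hyperoxia effect called 0 of the 10 genes by limma (7 at an unadjusted p under 0.05), where 0.0368% of all genes were called. The differences of males minus females were −2.39 ± 0.74 for Mmp8 (SE, limma adjusted p = 0.162), −1.95 ± 0.72 for Mmp9 (0.192), −2.10 ± 0.60 for Adamts4 (0.149) and 0.71 ± 0.20 for Timp2 (0.145).

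The calls, though not the directions, depended on mouse 19, the C57BM lung with 63.4 FPKM of Mmp8 against 6.90 and 3.60 in the other C57BM lungs, and 42.1 FPKM of Mmp9 against 3.64 and 3.48. Without it the differences were −2.96 for Mmp8 (limma adjusted p = 0.0155), −2.49 for Mmp9 (0.0256), −2.43 for Adamts4 (0.0248) and 0.74 for Timp2 (0.0416), and for Timp2 the call was also made without mouse 2 (0.79, 0.0274). The number of all genes called, 6 with all mice, ranged from 2 to 1270 when 1 mouse was left out, with 1270 without mouse 2. Without mice 19 and 33 Adamts4 (−1.90, limma adjusted p = 0.000345), Mmp8 (−2.53, 0.00557) and Mmp9 (−2.06, 0.0163) were called. These calls are a description only, because the 2 mice were left out after the data were seen and were high in these genes.

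Mmp8 showed the pattern in single lungs. In hyperoxia it was 2.09, 2.97 and 1.45 FPKM in C3HM and 4.41, 26.1 and 70.4 in C3HF, and 46.8, 29.0 and 43.4 FPKM in C57BF. All C3HM lungs were low, all C57BF lungs high, and the remaining groups held both. The summed neutrophil markers followed a like order, 390, 400 and 521 FPKM in C3HM, 549, 1872 and 7598 in C3HF, 6535, 629 and 669 in C57BM and 6163, 2809 and 5955 in C57BF.

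Of all 24 hyperoxia lungs, the 4 with the highest neutrophil sums (mice 19, 33, 43 and 45) had the 4 highest values of Mmp8 and of Mmp9. For Adamts4 they were among the highest 5, with mouse 44 (35.4 FPKM, sum 2809) as the other. Of the 10 neutrophil markers tested, 8 were higher in hyperoxia and 0 lower, where 31.8% of all genes were higher and 28.3% lower. Mpo and Elane, which mark immature neutrophils, had median levels of 0 FPKM in the saline hyperoxia lungs. The part of neutrophil number in these results was not tested.

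**Figure D3:**
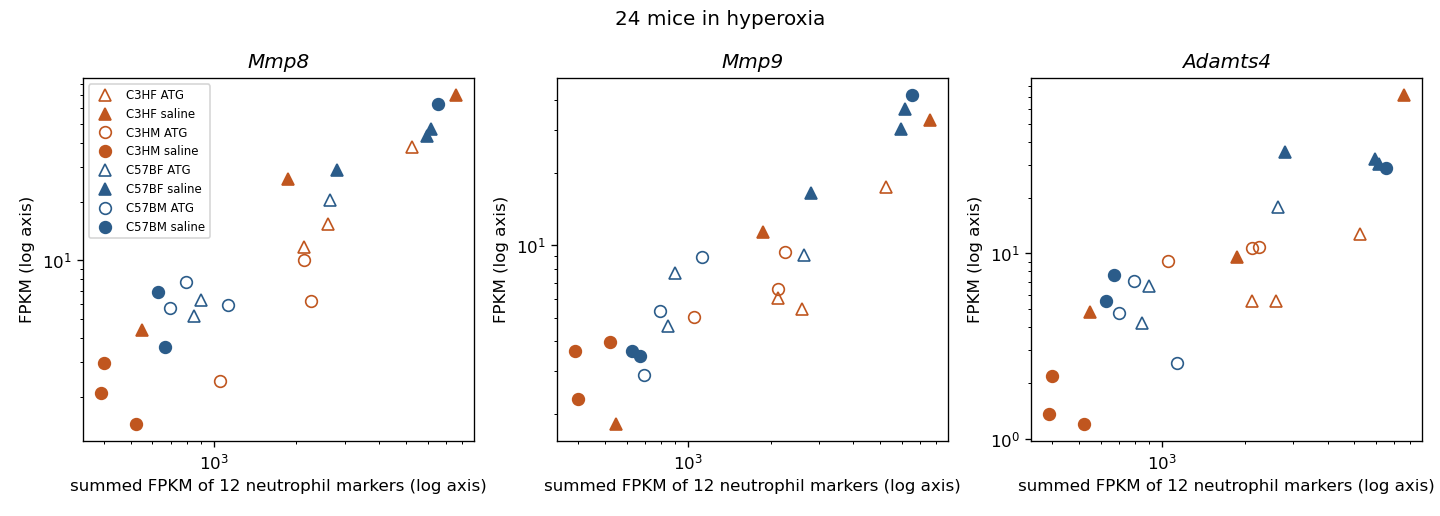
FPKM of Mmp8, Mmp9 and Adamts4 against the summed FPKM of 12 neutrophil markers (both axes log) in the 24 mice in hyperoxia, circles for males, triangles for females, filled for saline and open for ATG. The 4 lungs with sums of 5955 to 7598 held the highest Mmp8 and Mmp9, and the C3HM saline lungs with sums of 390 to 521 were among the lowest.

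Over all 48 mice, the genes whose log2(FPKM + 1) was most like that of each member were listed among 16994 genes, with r of the deviations from the 16 group means in brackets. These r describe mice that share exposure, strain and library. For Mmp8 they were Retnlg with r of 0.954 [0.920], Ccr1 with 0.945 [0.898] and Il1r2 with 0.943 [0.930]. For Mmp9 they were S100a8 with 0.931 [0.904], S100a9 with 0.930 [0.903] and Ifitm6 with 0.904 [0.804]. Retnlg, S100a8 and S100a9 are on the neutrophil list. For Mmp12 the closest were Ctsb with 0.911 [0.0721], Capg with 0.900 [0.298] and Saa3 with 0.890 [0.481]. For Ctsb little of the likeness was left within groups.

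For Adamts4 the closest were Sh3pxd2b with 0.967 [0.837], Lif with 0.963 [0.807] and Il4ra with 0.961 [0.785], and for Mmp3 Sphk1 with 0.952 [0.531], Nsun2 with 0.951 [0.520] and Lyve1 with 0.951 [0.605]. Mmp14 was nearest to Nifk with 0.892 [0.706], Tnc with 0.877 [0.749] and Phc2 with 0.875 [0.607]. Mmp2 was nearest to Ddb1 with 0.887 [0.870], Myo1c with 0.886 [0.835] and Ap2b1 with 0.875 [0.766]. Timp2 was nearest to Dag1 with 0.876 [0.812], Zc3h7b with 0.876 [0.780] and Spock2 with 0.869 [0.804].

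The remaining members had an overlapping gene among the 3 nearest. Mmp19 was most like Tmem198b (0.967 [0.866]), then Hsd17b12 (0.936 [0.634]) and Msr1 (0.934 [0.690]). Tmem198b lies on the opposite strand and shares 789 exonic bases with Mmp19. Timp3 was most like Bcar3 (0.889 [0.602]), then Syn3 (0.870 [0.803]) and F2r (0.849 [0.751]), and Syn3 on the opposite strand shares 1733 exonic bases with Timp3. Whether the counting used strand is not given in the sources used here, so reads of such partners cannot be told apart. A smaller overlap joined Mmp12 with Mmp1b (157 bases). Mmp3 shared 15.1% of its 30-base stretches with other genes, Mmp10 among them, and how reads from these were assigned was not tested.

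Among the members themselves the within-group likeness was uneven. The r of deviations from group means was 0.87 for Mmp8 with Mmp9, 0.81 for Mmp8 with Adamts4 and 0.71 for Mmp9 with Adamts4. These genes were not set apart from others, with 0.68 for Mmp19 with Adamts4, 0.64 for Mmp14 with Adamts4 and 0.62 for Mmp3 with Mmp8. It was 0.75 for Mmp2 with Timp2, 0.65 for Timp2 with Timp3 and 0.47 for Mmp2 with Timp3. Between Mmp8, Mmp9 or Adamts4 and Mmp2, Timp2 or Timp3 it was negative, for example −0.40 for Mmp2 with Mmp8. Mmp12 stood alone, with r between −0.36 and 0.26 to every other member.

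**Figure D4:**
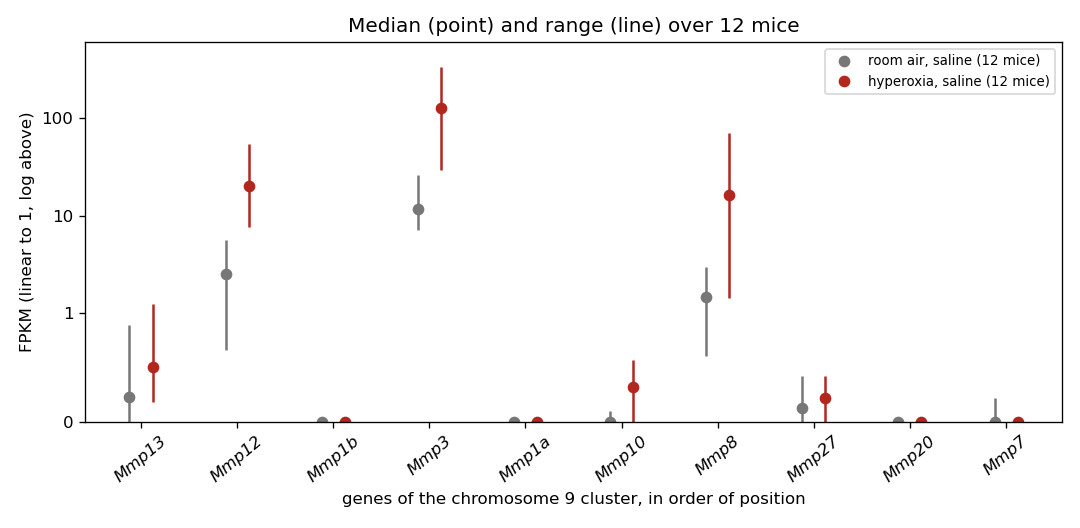
Median (point) and range (line) of FPKM over 12 saline mice in room air (grey) and hyperoxia (red) for the 10 metalloproteinase genes of the chromosome 9 cluster in order of position, on an axis linear to 1 and log above. Only Mmp12, Mmp3 and Mmp8 have medians of 1 or more, and each lies higher in hyperoxia.

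Within the chromosome 9 cluster the expressed genes were the 3 members. Mmp13 (collagenase-3) had a median of 0.228 FPKM in saline room air and 0.508 FPKM in saline hyperoxia, and Mmp27 had 0.124 and 0.222 FPKM. Mmp10 (stromelysin-2) was above 0 in 2 of 12 lungs in room air and in 11 of 12 in hyperoxia, at 0.572 FPKM or less. Mmp1a, Mmp1b and Mmp20 were listed at 0 in all lungs, and Mmp7 was above 0 in 2 room air lungs and 0 hyperoxia lungs. None of these 7 genes was abundant enough to be tested between hyperoxia and room air.

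The other genes of the pathway did not all move with the members. Over all genes 31.8% were called higher in hyperoxia and 28.3% lower. Of 16 other matrix metalloproteinases 6 were tested, and 1 was higher in hyperoxia (Mmp25, a membrane-bound enzyme of leukocytes, log2 change 0.48) and 4 were lower (Mmp11 −1.70, Mmp15 −1.01, Mmp28 −0.89 and Mmp24 −0.28). Their median change was −0.61. Of 7 other genes listed with the inhibitors 3 were tested, with Timp4 higher (0.38) and the membrane-anchored inhibitor Reck lower (−1.06). The proteoglycan Spock2 was also lower (−0.70). Whether Spock2 acts as an inhibitor was not assessed, so its change is not read as loss of inhibition. Timp1 was listed at 0 in all mice, like the other genes of the X chromosome, and could not be assessed.

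Of 18 other ADAMTS proteases 8 were tested, 3 higher (Adamts9 1.16, Adamts1 1.14 and Adamts2 1.08) and 4 lower (Adamts10 −1.72, Adamts17 −0.57, Adamts8 −0.47 and Adamts5 −0.41). Adamts9 and Adamts1 cut versican, as Adamts4 does, and Adamts2 trims procollagen. All 11 ADAM proteases were tested, 3 higher (Adam8 1.69, Adam9 1.06 and Adam12 0.63) and 2 lower (Adam33 −0.70 and Adam22 −0.48).

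The plasmin system and the convertases, which open proenzymes, moved mostly upward, with 8 of 10 tested genes higher, 0 lower and a median change of 0.76. The plasminogen activators Plat and Plau changed by 2.88 and 1.30, the urokinase receptor Plaur by 2.03 and Furin by 1.00. Of 12 matrix substrates 11 were tested, 6 higher and 1 lower. Versican (Vcan 2.44), basement membrane collagens (Col4a1 2.13, Col4a2 1.94), elastin (Eln 1.62) and fibronectin (Fn1 1.14) were higher, and brevican (Bcan −0.79) was lower.

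As for Mmp14, the hyperoxia effect was smaller in C3H for Vcan (log2 difference −2.44, limma adjusted p = 0.00696), Fn1 (−1.41, 0.00308), Col4a1 (−0.98, 0.0312) and Col4a2 (−0.95, 0.0305). In the substrate list 4 of 11 were called smaller and 1 larger in C3H, and in the plasmin list 2 of 10 were smaller and 0 larger. Over all genes 2.81% were called smaller and 8.71% larger. The Mmp14 call itself lay at the threshold, and a link between these genes was not tested.

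ATG was compared with saline in room air and in hyperoxia. In room air 0 of 9 genes tested were called by limma over both strains (4 at an unadjusted p under 0.05, with 0.0185% of all genes called), and 0 in the strain difference (2 unadjusted, with 0.0% called). In C57B alone, where 0.0555% of all genes were called, Mmp8 was higher with ATG. It was 12.9, 8.59 and 15.9 FPKM in ATG C57BM against 2.55, 2.00 and 3.01 in saline C57BM, and 1.95, 1.30 and 1.85 in ATG C57BF against 0.859, 1.50 and 0.887 in saline C57BF. The male groups were far apart and the female groups overlapped. The log2 change was 1.14 ± 0.18 (SE, limma adjusted p = 0.0136), 1.09 without mouse 14 (0.0546), 1.43 with a pseudocount of 0.1 (0.0674), 1.14 with all 48 mice fitted together (1.0), 1.91 in males alone (0.0978) and 0.38 in females alone (0.925). Summed neutrophil markers were 1737, 2084 and 3881 FPKM in these ATG C57BM lungs and 898, 708 and 935 FPKM in the saline ones, and their part in the result was not tested.

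In hyperoxia 0 of the 10 genes were called over both strains by limma (3 at an unadjusted p under 0.05), where 5.47% of all genes were. The nearest were Mmp14 (log2 change −0.39 ± 0.12 SE, limma adjusted p = 0.0579) and Timp3 (−0.38 ± 0.12, 0.0749). Mmp14 was called without mouse 21, 22, 32 or 44 (−0.44 to −0.43, limma adjusted p = 0.0331 to 0.0462), and Timp3 without mouse 33 or 43 (−0.45 to −0.44, 0.0294 to 0.0341). Without mice 19 and 33 Timp3 (−0.45, limma adjusted p = 0.0339) and Mmp2 (−0.34, 0.0207) were called and Mmp14 was not (−0.25, 0.0727). Within strains 1 gene each was called, Timp3 in C3H (2.65% of all genes) and Mmp14 in C57B (0.864%).

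Timp3 in C3H hyperoxia was 388, 404 and 316 FPKM in saline C3HM and 454, 563 and 308 in saline C3HF, against 216, 233 and 189 FPKM in ATG C3HM and 286, 310 and 265 in ATG C3HF. The ATG lungs reached only into the lowest saline values. The log2 change was −0.68 ± 0.17 (SE, n = 6 against 6, limma adjusted p = 0.0398), and 11 of the 24 mice (mice 7, 8, 10, 12, 23, 31, 32, 34, 35, 36 and 45) each took the call away when left out (limma adjusted p = 0.051 to 0.124). Without mice 19 and 33 it was −0.80 (limma adjusted p = 0.00858).

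Timp3 was also the single member, of 10, for which the ATG effect differed between hyperoxia and room air, by −0.66 ± 0.16 (SE, 48 mice, limma adjusted p = 0.0246), where 2.77% of all genes were called. This call was kept when any 1 of the 48 mice was left out, and in females alone the difference was −0.53 (0.441). It was −0.73 without mice 19 and 33 (limma adjusted p = 0.0112). In room air the Timp3 medians were 161 FPKM with saline and 188 FPKM with ATG in C3H, and 111 and 152 FPKM in C57B. In hyperoxia they were 396 FPKM with saline and 249 FPKM with ATG in C3H, and 284 and 257 FPKM in C57B.

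Mmp14 in C57B hyperoxia was 111, 66.0 and 58.3 FPKM in saline C57BM and 107, 69.7 and 108 in saline C57BF, against 58.4, 46.0 and 40.4 FPKM in ATG C57BM and 55.9, 43.9 and 54.5 in ATG C57BF. Saline and ATG lungs met only at 58.3 and 58.4 FPKM. The log2 change was −0.75 ± 0.17 (SE, limma adjusted p = 0.0389), lost without any of 11 mice (mice 12, 19, 23, 24, 32, 35, 43, 45, 46, 47 and 48, limma adjusted p = 0.0502 to 0.113) and −0.61 without mice 19 and 33 (0.0607).

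Adamts4 in ATG hyperoxia lungs was 10.6, 9.08 and 10.8 FPKM in ATG C3HM and 12.7, 5.52 and 5.51 in ATG C3HF, and 7.06, 4.78 and 2.58 FPKM in ATG C57BM and 6.69, 4.23 and 17.8 in ATG C57BF. All 3 C3HM lungs with ATG lay above all 3 with saline, and all 3 C57BF lungs with ATG lay below all 3 with saline. The log2 change was 0.57 ± 0.48 in C3H (SE, limma adjusted p = 0.612) and −1.50 ± 0.48 in C57B (0.112), and the difference of these effects, 2.07 (0.196), did not pass the threshold. That limma test called 0 of the 10 genes (5 at an unadjusted p under 0.05) and 0.416% of all genes. Without mouse 33 the change in C57B was −1.50 (limma adjusted p = 0.0454) and the difference 2.60 (0.0136). Without mice 19 and 33 the change was 1.11 in C3H (limma adjusted p = 0.0272) and −1.16 in C57B (0.0922), and the difference was 2.27 (0.00938).

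The summed neutrophil markers in these lungs were 2130, 1057 and 2251 FPKM in ATG C3HM against 390, 400 and 521 in saline C3HM, and 902, 852 and 2653 FPKM in ATG C57BF against 6163, 2809 and 5955 in saline C57BF. They were thus higher with ATG in C3HM and lower in C57BF, as Adamts4 was, and their part in the Adamts4 values was not tested. Mmp3 and Mmp8 in C57B had log2 changes of −0.81 (limma adjusted p = 0.106) and −1.43 (0.199) with ATG, or −0.60 (0.229) and −0.86 (0.361) without mice 19 and 33.

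**Figure D5:**
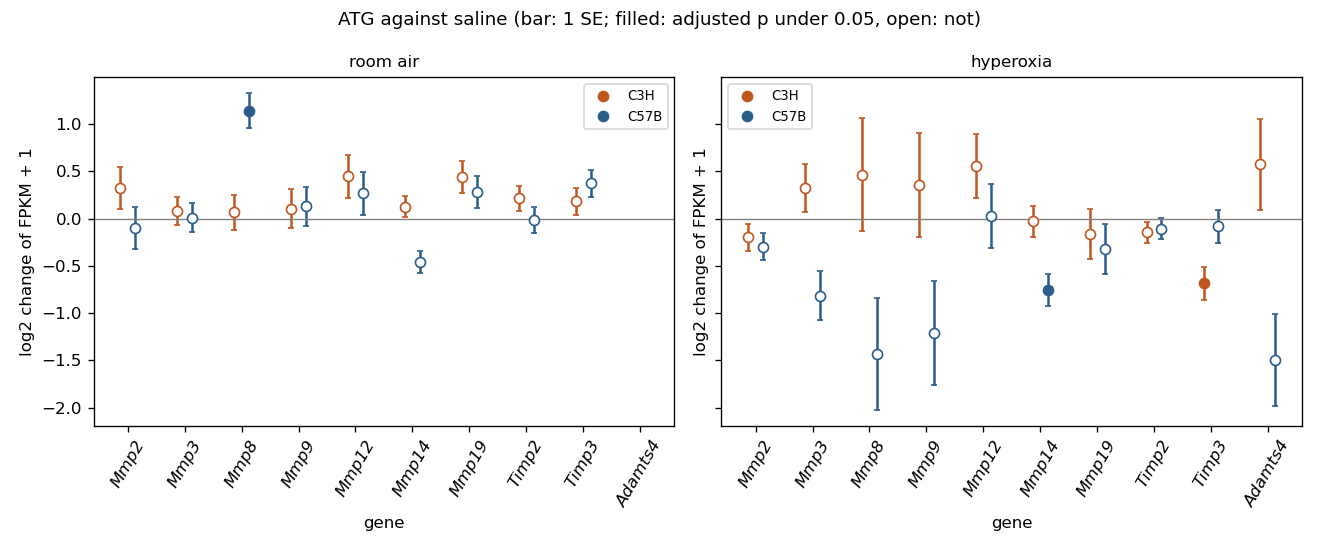
Log2 change of FPKM + 1 with ATG against saline in room air (left) and hyperoxia (right) for each strain (orange C3H, blue C57B, 6 mice a group, bar 1 SE, filled points at a limma adjusted p under 0.05). The filled points are Mmp8 in C57B room air at 1.14, Timp3 in C3H hyperoxia at −0.68 and Mmp14 in C57B hyperoxia at −0.75.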

How the data were processed

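Lung RNA of 48 mice was sequenced from poly(A) libraries. Per the labels and processing notes the authors aligned reads to mm10 with GSNAP and made FPKM values with Cufflinks. These deposited FPKM values, 1 column for each mouse, were used as they are, with no normalization between libraries beyond the FPKM scaling itself. All 48 columns were matched to mice, and 0 columns were left unused. Genes of the sex chromosomes and mitochondrion are listed at 0. A gene with a failed estimate was removed (1 gene).

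Values were analysed as log2(FPKM + 1), keeping genes whose FPKM reached 1 or more in 3 or more of the fitted mice, with limma 3.58.1 in R 4.3.3 (group means model, empirical Bayes with trend, Benjamini-Hochberg over all genes, threshold 0.05, two-sided). Baseline comparisons used the 12 saline room air mice, in a model of strain and sex as in the study's methods, and comparisons within an air or injection used 24 mice. Exact permutation tests used SciPy 1.17.1. Scripts were tested on simulated data. Depth is known only in relative terms, and no counting interval was computed.

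The named genes were all 10 members, and from each pathway list the called genes with up to 5 of the largest changes each way. Some genes that this rule or the overlap search named are not reported here. The comparisons within a strain for ATG, and between strains and between sexes in hyperoxia, were added to those planned. The members and lists were chosen with earlier results of these data known. Alternatives were another pseudocount (0.1), other filters, scalings and models, single sexes and leaving out each mouse. The fit without mice 19 and 33 was chosen after seeing the data.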

Additional observations from a re-analysis of the deposited data

Results flagged for a closer look

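Within the groups of 6 mice of a strain, injection and air, 13 of 80 sets of values held a mouse whose gap to its nearest neighbour, divided by the range, exceeded Dixon's 95% critical value. Chance gives such a gap in about 1 in 20 groups, and genes of the same mouse are not independent. Of the C3H saline hyperoxia lungs, mouse 33 (C3HF) was high in Mmp8 (70.4 FPKM), Mmp9 (33.3 FPKM), Mmp14 (83.3 FPKM) and Adamts4 (71.5 FPKM). Of the C57B ATG hyperoxia lungs, mouse 48 (C57BF) was high in Mmp8 (20.4 FPKM), Mmp12 (31.4 FPKM) and Adamts4 (17.8 FPKM) and low in Mmp2 (30.2 FPKM). Its summed neutrophil markers were 2653 FPKM, the highest of the C57B ATG hyperoxia lungs. Of the C3H ATG hyperoxia lungs, mouse 34 (C3HF) was high in Mmp8 (38.2 FPKM) and Mmp9 (17.5 FPKM), and its neutrophil sum of 5241 FPKM was the highest of its group, while mouse 35 was low in Mmp19 (30.5 FPKM). In room air, mouse 38 (C57BF, saline) was high in Mmp2 (48.4 FPKM) and mouse 28 (C3HF, ATG) in Mmp8 (2.85 FPKM).

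Effects that differed between groups by a direct test were those of Mmp12 (2.20 on the log2 scale) and Mmp14 (−0.78) in the hyperoxia effect of C3H minus C57B, and that of Timp3 (−0.66) in the ATG effect of hyperoxia minus room air.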

How the results depend on the processing

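No paired analysis was possible because each mouse carries its own number and the groups share none. Counts of genes called moved most with fewer mice. Males only gave 6403 genes for hyperoxia (9803 in all mice), 3380 in C3H (6169) and 5059 in C57B (9063), and females only 4006 in C3H. The strain difference (1880) became 293 in males, 206 in females and 2994 with all 48 mice fitted, and 1400 to 3242 with 1 mouse left out. The sex difference (6) became 2 with median ratio scaling, 306 with all 48 mice and 627 without mice 19 and 33 (2 to 1270). Baseline strain (1832) became 782 in males, 779 in females and 2982 with all 48 mice (1306 to 4021). Baseline sex (104) became 60 with a filter of 0.1, 40 without a filter, 1915 with all 48 mice and 30 without mice 1 and 3 (20 to 3640). Strain by sex (0) became 5 with a pseudocount of 0.1, 2 with a filter of 0.1, 2 with no filter, 2 with no trend, 748 with all 48 mice and 1 without mice 1 and 3 (0 to 2741). ATG in room air (3) became 5 with no filter, 1 in males, 7 in females and 5 without mice 1 and 3 (3 to 32), and its strain difference (0) became 2 with no filter, 2 in males and 6 in females (0 to 17). ATG in hyperoxia (868) became 0 in males and 9 in females (443 to 1096), its strain difference (66) 0 in males, 1 in females, 234 with all 48 mice and 287 without mice 19 and 33 (37 to 302), and the difference between airs (470) 313 with no filter, 4 in males and 2 in females (243 to 1093).

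Of the 10 genes, those called for hyperoxia in C3H (8) fell to 5 in males only. The strain difference (2) fell to 1 with a filter of 0.1, no filter, no trend, males only or without mice 1 and 3, and to 0 in females only (1 to 3 with 1 mouse left out), where Mmp12 was at 1.61 (limma adjusted p = 0.222). The sex difference (0) became 3 with all 48 mice and 3 without mice 19 and 33 (0 to 4). Baseline strain (4) became 2 in either sex, baseline sex (0) 2 with all 48 mice (0 to 3) and strain by sex (0) 1 (0 to 3). ATG in hyperoxia (0) became 1 with quantile normalization, 2 with all 48 mice and 2 without mice 19 and 33 (0 to 1), its strain difference (0) 2 in both these fits (0 to 2), and the difference between airs (1) became 0 in females. This check followed only a chosen part of the member effects. Among those followed, changes of sign were confined to effects called in neither fit. They were Timp2 in C57B with median ratio scaling (0.0019), Timp2 in males (0.20 over strains, 0.044 in C3H, 0.36 in C57B), Mmp9 in males (−0.18 over strains, −0.68 in C57B), Adamts4 with ATG in C3H females (−0.98) and, with 1 mouse left out, Timp2 in C57B (−0.081 to 0.034). Some effects not followed also changed sign. With ATG in hyperoxia over both strains, Adamts4 was −0.46 in all mice and 0.51 in males alone, and Mmp8 was −0.48 and 0.10. The exact tests passed in 16 of 20 comparisons under each scaling, though under median ratio scaling Mmp14 in C3H did not (adjusted p = 0.230). The 8 genes that passed there in C3H thus included Mmp9 or Timp2, which the main limma fit did not call. The causes were not tested. Over alternatives other than leaving out 1 mouse, 531 refits of the member effects followed kept direction and call, 49 lost the call, 28 gained it and 7 changed sign. Each effect counts once for every alternative, so these are not separate effects.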
